A study of Homo sapiens with 28 samples.

Results

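The subunits of the oxidative phosphorylation machinery were followed across A549 and H1944, lung adenocarcinoma cell lines. Members were protein-coding genes chosen by symbol alone: the mitochondrially encoded MT-ND, MT-CO, MT-ATP and MT-CYB genes, and nuclear genes named NDUFA, NDUFB, NDUFC, NDUFS or NDUFV with a number, SDHA to SDHD, UQCR, COX4 to COX8, and ATP5F, ATP5M or ATP5P. The rule found 101 genes among the 60487 rows of the deposited table, 19645 of which were protein-coding, and used no measured value. Of the 101, 13 lie on the mitochondrial genome and 88 on nuclear chromosomes. Complex I had 44 members, 7 of them mitochondrial, complex II had 4, all nuclear, complex III had 10 with 1 mitochondrial, complex IV had 22 with 3 mitochondrial, and complex V had 21 with 2 mitochondrial. NDUFA4 and NDUFA4L2, which the rule found by their older complex I names, were counted with complex IV.

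As background, complexes I to IV pass electrons from NADH and succinate to oxygen and, with the exception of complex II, pump protons across the inner mitochondrial membrane, and complex V lets the protons back to make ATP. All complexes but complex II are built from proteins of both genomes. The mitochondrial genome is transcribed as long polycistronic RNAs inside the organelle, whereas the nuclear subunits are transcribed gene by gene, translated in the cytosol and imported, and the coactivator PGC-1α with the factors NRF1, GABP (an ETS protein), ERRα and YY1 is known to drive many of the nuclear genes.

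Both lines carried the MGT#1-mVenus reporter. Treated cells received GSK126, an inhibitor of the histone methyltransferase EZH2, at 5 µM, or the cytokine TGF-β1 at 5 ng/ml, for 11 days, and were then sorted by flow cytometry on mVenus, a high and a low gate each. Naive cells were untreated and unsorted, so that treatment and sorting cannot be told apart in a comparison with naive cells. A549 had 3 naive libraries, 3 GSK126 low, 2 GSK126 high, 2 TGF-β1 low and 3 TGF-β1 high, and H1944 had 3 libraries in each of its 5 groups, which gave 28 libraries in 10 groups. Letters A to C number the libraries of a group. The labels do not say that libraries of a group came from separate cultures, so p-values measure only the spread between these libraries.

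RNA was turned into libraries with a low-input kit for stranded total RNA. Total counts ran from 2013449 to 9550143 per library in A549, with a median of 4783344. In H1944 they ran from 1660148 to 13280592, with a median of 2552121. The A549 libraries were far more variable, with a common biological coefficient of variation of 0.358 against 0.0978 in H1944. Epithelial markers (KRT8, KRT18, KRT19, EPCAM, CDH1) were summed as a check of the labelled cell type, and their sum was 10253 to 10685 CPM (a gene's counts scaled to the total of the library) in naive A549 and 4865 to 5487 CPM in naive H1944. It was 2061 to 3162 CPM in TGF-β1-treated A549 and 1443 to 1672 CPM in TGF-β1-treated H1944. After GSK126 the sum was 4665 to 6397 CPM in A549 and 4879 to 7521 CPM in H1944, and single markers went different ways. CDH1 went from 58.3 to 67.1 CPM in naive A549 to 5.61 to 9.16 CPM. In H1944 it went from 267 to 278 CPM to 64.8 to 125 CPM, and the other markers overlapped their naive ranges. In A549 KRT8, KRT18 and EPCAM also lay below their naive ranges, and KRT19 above its own (401 to 640 against 243 to 262 CPM). In all 28 libraries KRT8 and KRT18 were present, and they made up most of the sum. KRT19 had 1 count over the 6 TGF-β1 libraries of H1944, and EPCAM went from 76.5 to 82 CPM in naive H1944 to 5.89 to 16.9 CPM there. Each of the 5 epithelial markers, CDH1 included, lay below its naive range after TGF-β1 in both lines. Of 845 olfactory receptor genes, 2 with 5 CPM or more in a group were left out, OR51E1 (49.4 to 59.4 CPM in naive A549) and OR51E2 (15.6 to 18.4 CPM there). The other 843 summed to 383 CPM in A549 naive A and to 602 CPM in A549 TGF-β1 high B, against 14.0 to 242 CPM in the other 11 A549 libraries and 15.8 to 145 CPM in H1944. These A549 libraries, naive A and TGF-β1 high B, are called background-rich here. All 5 leukocyte, 5 endothelial and 5 red cell markers had a count in each line. In A549 the leukocyte sum was 2.0 to 25.7 CPM, the endothelial sum 0 to 52.8 CPM and the red cell sum 0 to 9.98 CPM, each highest in TGF-β1 high B. In H1944 these sums were 0 to 12, 4.53 to 19.3 and 0 to 16.0 CPM, the last highest in naive cells at 10.9 to 16.0 CPM. Their part in the results was not tested.

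Ranked by mean CPM per kilobase of exon, the 13 mitochondrial members took ranks 1 to 13 among the members in the naive cells of both lines. The length was that of all annotated exons of a gene joined, and in CPM alone the genomes were not apart. COX7C had a mean of 909 CPM and MT-ND3 737 CPM in naive A549, and ATP5F1B had 595 CPM and MT-ND3 557 CPM in naive H1944, with overlapping libraries. MT-ND4, a proton-pumping complex I subunit, was first at 9433 CPM per kb in A549 and 8789 CPM per kb in H1944. The lowest mitochondrial member was MT-ND3 in A549 at 2129.7 CPM per kb and MT-ND6 in H1944 at 997 CPM per kb. The first nuclear member was COX7C, a small complex IV subunit, in A549 at 456 CPM per kb, and NDUFS5, a small complex I subunit, in H1944 at 316 CPM per kb. In A549 NDUFS5 stood next at 454 CPM per kb, and these neighbours differed by less than the spread between libraries. Averaged over the 28 libraries, the most abundant nuclear member per kilobase was NDUFS5 in complex I and the iron-sulfur subunit SDHB in complex II. It was UQCRQ in complex III, COX7C in complex IV and the catalytic β subunit ATP5F1B in complex V. The lines differed in complex II, as SDHA stood above SDHB in naive H1944 (44 against 27.6 CPM per kb) and below it in naive A549 (14.9 against 43.2 CPM per kb).

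Members that hardly registered were mostly tissue-restricted isoforms. COX4I2, COX6A2, COX6B2, COX7A1 and COX8C, all alternative complex IV subunits, together with ATP5MGL, ATP5MF-PTCD1 and NDUFC2-KCTD14, did not pass edgeR's filter on low counts in either line. COX7B2 did not pass in A549 and NDUFA4L2 did not pass in H1944. The tests therefore covered 92 members in each line, all 13 mitochondrial ones and 79 of the 88 nuclear ones, and 93 in the fit of both lines. COX7B2 had 126 counts in the naive H1944 libraries and 2 in the naive A549 libraries, which is 71.1 times as much in CPM. From counting error only, the exact 95% limits of that figure were 19.3 and 593. Both A549 counts were in naive A, a background-rich library, and naive B and naive C had 0, so the figure rests on that library.

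Promoters were available in RefSeq's GRCh38.p14 table for 69 of the 88 nuclear members, each a window of 250 bases before to 50 bases after the start. The NRF1 core GCATGCGC, searched on both strands, was found in 13 of the 69 (18.8%) and in 3.02% of the other 35034 promoters of the table, or 3.69% of the other 21399 protein-coding ones. The YY1 motif AAGATGGCG was found in 8 (11.6%, against 1.72% and 2.42%), the ETS motif CCGGAAG in 20 (29%, against 10.2% and 12.9%) and the ERR motif TCAAGGTCA in 1 (1.45%, against 0.351% and 0.234%). The ETS motif ends in the letters with which the YY1 motif begins, so matches of these motifs can share letters, and a match is a description of the letters, not evidence of binding. The stretches printed here come from this table, read 5′ to 3′ on the gene's strand and ending before the gene's annotated start. SDHB, COX5B and NDUFB4 are shown because they hold the NRF1 core, and ATP5MC1 and NDUFA12 because their RNA had the largest fall and the only rise after TGF-β1 in H1944. Capitals mark motif matches.
SDHB promoter, chr1:17054171-17054282, minus strand: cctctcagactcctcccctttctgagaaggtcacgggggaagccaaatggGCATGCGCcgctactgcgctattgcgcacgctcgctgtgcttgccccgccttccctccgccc
COX5B promoter, chr2:97645890-97646039, plus strand: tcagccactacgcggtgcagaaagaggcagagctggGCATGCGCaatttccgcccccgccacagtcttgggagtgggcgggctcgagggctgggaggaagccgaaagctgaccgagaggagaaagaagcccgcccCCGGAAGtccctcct
NDUFB4 promoter, chr3:120596159-120596308, plus strand: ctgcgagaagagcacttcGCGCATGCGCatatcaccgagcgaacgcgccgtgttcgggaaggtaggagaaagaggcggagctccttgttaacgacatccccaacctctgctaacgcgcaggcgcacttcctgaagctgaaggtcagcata
ATP5MC1 promoter, chr17:48892615-48892764, plus strand: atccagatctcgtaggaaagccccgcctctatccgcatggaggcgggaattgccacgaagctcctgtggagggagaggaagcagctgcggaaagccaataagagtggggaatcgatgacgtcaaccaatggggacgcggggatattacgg
NDUFA12 promoter, chr12:95003771-95003920, minus strand: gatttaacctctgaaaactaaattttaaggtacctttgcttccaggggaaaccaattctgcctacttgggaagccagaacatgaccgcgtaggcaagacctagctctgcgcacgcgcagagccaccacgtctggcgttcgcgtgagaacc
The SDHB stretch has 1 NRF1 core, the COX5B stretch 1 NRF1 core and 1 ETS match, and in NDUFB4 the core is read once on each strand over overlapping letters. The stretches of ATP5MC1 and NDUFA12 have no exact match to any of these motifs. Only exact letters were searched, so variant forms of a motif, such as a near form of the NRF1 core in the NDUFA12 stretch, were not counted.

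After TGF-β1 in H1944, RNA for nearly all nuclear subunits was lower than in naive cells, with a median near -0.8 on the log2 scale, and the mitochondrial members were lower by less. By edgeR's quasi-likelihood test with Benjamini-Hochberg adjustment over 13621 genes, 72 of the 79 nuclear members tested fell and 1 rose, whereas over all genes 31.6% fell and 32.1% rose. The median log2 fold change was -0.82 over the nuclear members, -0.49 over the mitochondrial members and -0.01 over all genes. Of the 13 mitochondrial members 10 fell and none rose. Every nuclear member of complexes II (4 of 4, median -0.97), III (9 of 9, -0.93), IV (13 of 13, -1.04) and V (17 of 17, -0.91) that was tested fell, and in complex I 29 of 36 fell (-0.67). CPM are shares of a library, and in bulk RNA fewer cells of a type and less RNA per cell cannot be told apart.

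ATP5MC1 encodes subunit c, the proton-carrying ring of ATP synthase, at chr17:48892765-48895871 on the plus strand (GRCh38, ENSG00000159199.12). It had 82.4, 89.8 and 80.7 CPM in the naive H1944 libraries, and a lowest, median and highest of 11.4, 16.6 and 22.6 CPM over the 6 TGF-β1 libraries. Every TGF-β1 library lay far below every naive one, and the log2 fold change of -2.21 ± 0.13 (SE, adjusted p = 1.79e-19, edgeR) was the largest fall of any member, 4.62-fold. The other genes for the same ring protein were lower too, ATP5MC3 by -1.23 ± 0.12 (adjusted p = 1.3e-12, edgeR). ATP5F1B, the catalytic subunit, had 563, 645 and 575 CPM in naive cells and 196, 229 and 259.6 CPM (lowest, median, highest) after TGF-β1, a log2 fold change of -1.33 ± 0.08 (adjusted p = 1.27e-18, edgeR). ATP5F1D, the δ subunit of the central stalk, had 79.4, 81.5 and 76.1 CPM in naive cells and 20.8, 24.4 and 29.3 CPM after TGF-β1 (-1.56 ± 0.13, adjusted p = 1.79e-14, edgeR). For both genes the groups did not overlap.

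In complex I the accessory subunit NDUFC1 fell most, from 34, 45.3 and 40.1 CPM in naive H1944 cells to 10.2, 11.9 and 15.9 CPM (lowest, median, highest) after TGF-β1, a log2 fold change of -1.63 ± 0.17 (adjusted p = 9.66e-12, edgeR). NDUFA12, an accessory subunit at chr12:94897055-95003770 on the minus strand, went the other way. Its naive libraries had 46.2, 43.3 and 42.5 CPM and its TGF-β1 libraries 49.4, 64.9 and 83.1 CPM (lowest, median, highest), so that all treated libraries were above all naive ones (+0.69 ± 0.14, adjusted p = 2.62e-05, edgeR). NDUFS5, the most abundant nuclear member per kilobase of exon in this line, had 167, 179 and 173 CPM in naive cells against 141, 166 and 183 CPM, overlapping ranges with a log2 fold change of 0 ± 0.09 (adjusted p = 0.99, edgeR). The other nuclear members that did not pass were NDUFA5, NDUFA9, NDUFB4, NDUFB6 and NDUFC2, all of complex I, with log2 fold changes between -0.33 (NDUFB4) and 0.17 (NDUFA5). These names were read off after the values were seen.

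In complex II, SDHA, the flavoprotein that oxidises succinate, had 383, 356 and 368 CPM in naive H1944 cells and 166, 169.9 and 179 CPM (lowest, median, highest) after TGF-β1 (-1.04 ± 0.08, adjusted p = 2.72e-16, edgeR). SDHB fell by 1.05 ± 0.12 on the log2 scale (adjusted p = 1.06e-10, edgeR). In complex III the core protein UQCRC1 went from 140.0, 168 and 141 CPM to 54.5, 60.7 and 65.2 CPM (-1.24 ± 0.1, adjusted p = 7.09e-15, edgeR). In complex IV, COX7C went from 432, 504 and 418 CPM to 150.3, 174 and 182 CPM (-1.34 ± 0.09, adjusted p = 4.58e-17, edgeR), and COX7B, another small subunit, from 81.6, 98.6 and 99.8 CPM to 26.7, 31.9 and 45.6 CPM (-1.41 ± 0.13, adjusted p = 1.19e-12, edgeR). For SDHA, UQCRC1, COX7C and COX7B alike, the naive and TGF-β1 libraries formed separate ranges.

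The mitochondrial members moved by smaller and unequal amounts in the same cells. MT-CO3, a core subunit of complex IV, fell most, from 3233, 3426 and 3113 CPM in naive H1944 cells to 1751, 1812 and 1921 CPM (lowest, median, highest) after TGF-β1 (-0.76 ± 0.07, adjusted p = 1.61e-12, edgeR). MT-ATP6, the proton channel subunit of complex V, fell by 0.65 ± 0.08 on the log2 scale (adjusted p = 6.32e-10, edgeR) and MT-ND1 of complex I by 0.61 ± 0.07 (adjusted p = 1.74e-10, edgeR). The smallest called fall was that of MT-CYB, the mitochondrial subunit of complex III, from 4171, 3974 and 3754 CPM to 3169.5, 3349.9 and 3493 CPM (-0.18 ± 0.07, adjusted p = 0.0287, edgeR). MT-ND5 (-0.09, adjusted p = 0.321), MT-ATP8 (-0.4, adjusted p = 0.138) and MT-ND6 (0.4, adjusted p = 0.357) did not pass edgeR's test. The adjusted p of MT-CYB was 0.0514 without TGF-β1 high A and 0.1 without naive A, and that of MT-ATP8 was 0.0209 without TGF-β1 high C.

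**Figure D1:**
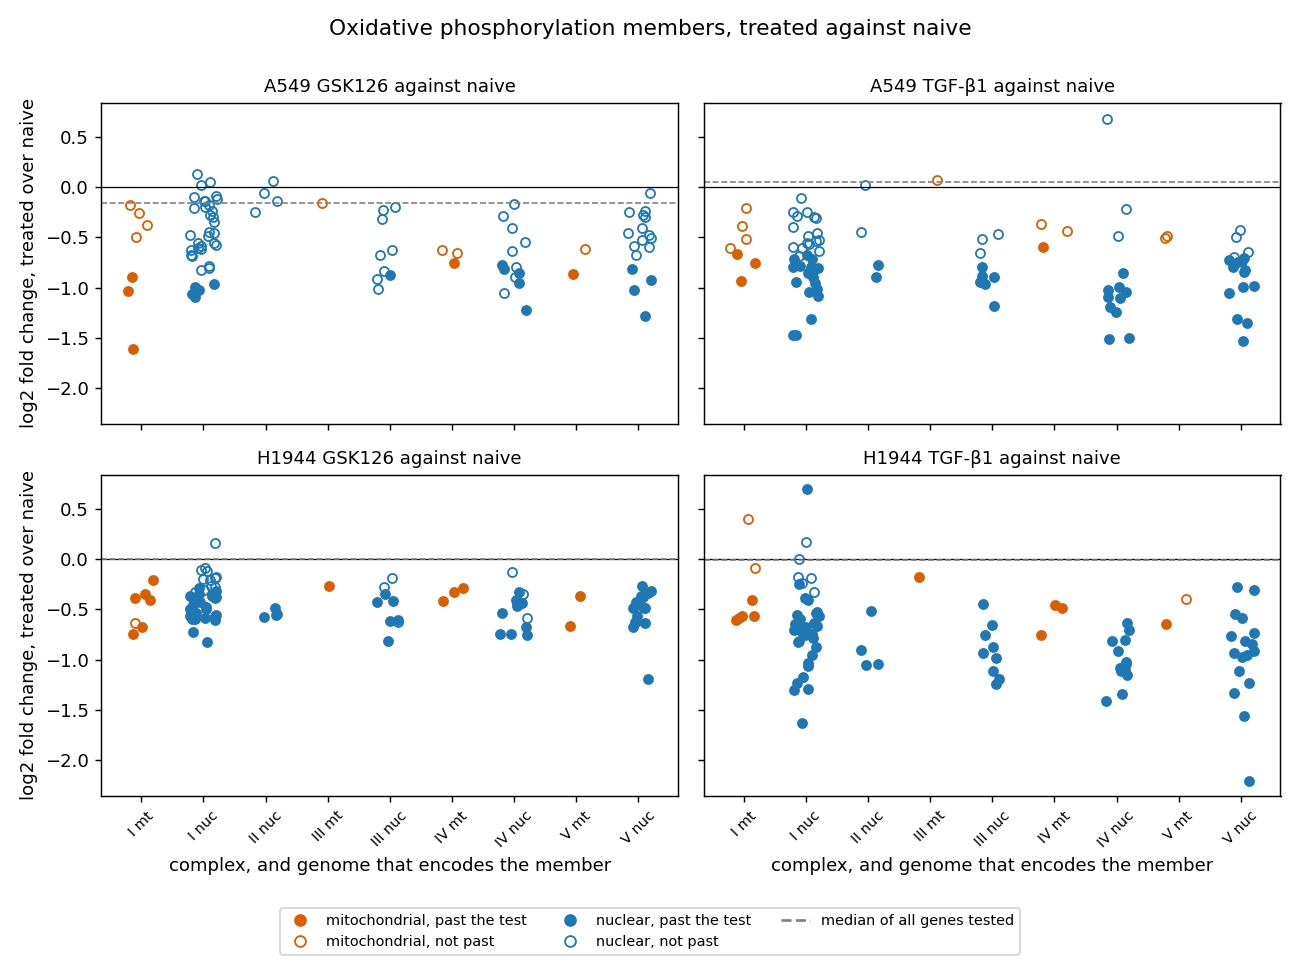
Log2 fold change of each tested member against naive cells, by complex and genome, in the 4 comparisons with naive cells; filled points passed the test (adjusted p under 0.05) and open points did not. In H1944 after TGF-β1 the nuclear points lie around -0.82 and the mitochondrial points around -0.49, with NDUFA12 the filled point above 0.

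After GSK126 in H1944 most members of both genomes were lower than in naive cells. Of 79 nuclear members 60 fell and none rose by edgeR's adjusted p, against 18.7% of all genes that fell and 21.4% that rose, and none of them was higher at an unadjusted p under 0.05 or by DESeq2. Of the 13 mitochondrial members 12 fell and none rose. The medians were -0.46 for nuclear and -0.39 for mitochondrial members, beside 0 for all genes. All 17 tested nuclear members of complex V (median -0.49) and all 4 of complex II (-0.55) fell, as did 10 of 13 of complex IV (-0.47), 6 of 9 of complex III (-0.43) and 23 of 36 of complex I (-0.38).

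ATP5MC1 was again the member that moved most, from 82.4, 89.8 and 80.7 CPM in naive H1944 cells to 37.1, 39.2 and 45.3 CPM (lowest, median, highest) over the 6 GSK126 libraries, without overlap (-1.19 ± 0.12, adjusted p = 7.79e-12, edgeR). NDUFB1, an accessory subunit of complex I, went from 78.6, 89 and 80.3 CPM to 40.0, 51.2 and 56.2 CPM (-0.83 ± 0.11, adjusted p = 4.05e-08, edgeR). COX7A2L, which joins complexes III and IV in supercomplexes, went from 93.7, 98.2 and 81.3 CPM to 49, 55.7 and 68.6 CPM (-0.76 ± 0.1, adjusted p = 4.59e-08, edgeR), and the groups were again apart. UQCRH, the hinge protein of complex III, fell by 0.82 ± 0.18 on the log2 scale (adjusted p = 0.0013, edgeR). It has a near-identical copy, UQCRHL, and reads could be split between them.

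Among the mitochondrial members of H1944, GSK126 gave the largest fall for MT-ND3, a small complex I subunit, from 587, 578 and 506 CPM in naive cells to 306, 349 and 415 CPM (lowest, median, highest; -0.75 ± 0.11, adjusted p = 2.43e-06, edgeR). MT-ND4L fell by 0.68 ± 0.1 (adjusted p = 3.44e-06, edgeR) and the smallest called fall was that of MT-ND5 (0.21 ± 0.08, adjusted p = 0.0231, edgeR; 0.0801 without GSK126 low A and 0.137 without naive A). MT-ND6, the member encoded on the light strand (chrM:14149-14673, minus strand), was the exception at -0.64 ± 0.35 (adjusted p = 0.173, edgeR). Its naive libraries had 503, 374 and 693 CPM and its GSK126 libraries 251, 293 and 660.0 CPM (lowest, median, highest), with overlap, and the adjusted p was 0.0342 without GSK126 low B. For MT-ATP8 it was 0.0322, and 0.0515 to 0.158 without any one of GSK126 high A, low B, high B or low C, naive A or naive B. The strand setting of the count step is not given in the sources used here, so MT-ND6 reads and antisense reads of its neighbours may not be told apart. MT-ATP8 and MT-ATP6, and MT-ND4L and MT-ND4, overlap on the genome, and nuclear copies of mitochondrial genes share their sequence, so reads between these can be split or lost.

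In A549 after TGF-β1 the nuclear subunits were lower by about as much as in H1944, while fewer of the changes passed in these more variable libraries. Of 79 nuclear members 50 fell and none rose by edgeR's adjusted p, with none higher at an unadjusted p under 0.05 or by DESeq2, against 11.5% of all genes that fell and 7.77% that rose. The nuclear median was -0.8, the mitochondrial median -0.51 and the median of all genes 0.05. By complex, 19 of 36 nuclear members of complex I fell (median -0.7), 2 of 4 of complex II (-0.62), 6 of 9 of complex III (-0.89), 10 of 13 of complex IV (-1.04) and 13 of 17 of complex V (-0.8). The count was 20 without naive B, 33 without TGF-β1 low A and 20 with the low gate alone.

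ATP5MC1 had 71.6, 69.8 and 63.7 CPM in naive A549, 21.1 and 30.7 CPM in the TGF-β1 low gate and 21, 24.8 and 34.6 CPM in the high gate. Every treated library lay below every naive one, and the log2 fold change was -1.53 ± 0.21 (adjusted p = 1.61e-05, edgeR). COX7B had 199, 315 and 302 CPM in naive cells, 99.4 and 131 CPM in the low gate and 105, 87.1 and 122 CPM in the high gate (-1.51 ± 0.25, adjusted p = 0.000178, edgeR). NDUFC1 had 30.4, 44.5 and 39.9 CPM in naive cells, 18 and 15.3 CPM in the low gate and 15.6, 13.7 and 15.6 CPM in the high gate (-1.47 ± 0.22, adjusted p = 4.87e-05, edgeR). No treated library reached the lowest naive one for any of these genes. COX7A2, the liver-type isoform of a complex IV subunit, fell by 1.5 ± 0.25 on the log2 scale (adjusted p = 0.000167, edgeR) and NDUFB1 by 1.47 ± 0.24 (adjusted p = 0.000108, edgeR).

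Of the mitochondrial members, 4 of 13 fell in A549 after TGF-β1 and none rose: MT-ND3 by 0.93 ± 0.2 (adjusted p = 0.00192), MT-ND4L by 0.76 ± 0.2 (adjusted p = 0.0109), MT-ND4 by 0.67 ± 0.21 (adjusted p = 0.0324) and MT-CO2 by 0.6 ± 0.21 (adjusted p = 0.0482), all on the log2 scale by edgeR. The count of 4 was 7 without TGF-β1 high B, 1 without naive C, and 2 without any one of GSK126 high A, low B or high B, TGF-β1 low A, high A or low C, naive A or naive B. MT-ND3 passed under each of these omissions, MT-ND4L in all but 1 (adjusted p = 0.0537 without naive C), and MT-ND6 passed without TGF-β1 high B (adjusted p = 0.0142). MT-CO1, the catalytic subunit of complex IV, had 17071, 10182 and 10298 CPM in naive cells, 9509 and 11541 CPM in the low gate and 11320.1, 9001 and 10786 CPM in the high gate. Naive A, a background-rich library, stood far above all others for MT-CO1, and the other naive libraries lay inside the treated range (-0.37 ± 0.24, adjusted p = 0.371, edgeR). MT-CYB had a log2 fold change of 0.07 ± 0.2 (adjusted p = 0.928, edgeR).

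GSK126 in A549 gave the fewest calls. Of 79 nuclear members 15 fell and none rose by edgeR's adjusted p, none being higher at an unadjusted p under 0.05 or by DESeq2, and 41 had an unadjusted p under 0.05. Over all genes 3.21% fell and 3.66% rose. The medians were -0.55 for nuclear members, -0.63 for mitochondrial members and -0.16 for all genes. Called nuclear members were 5 of 36 in complex I, 0 of 4 in complex II (median -0.1), 1 of 9 in complex III, 5 of 13 in complex IV (median -0.8) and 4 of 17 in complex V. The nuclear count was 48 without both background-rich libraries, 33 without naive A, 27 without TGF-β1 high B, 7 without GSK126 low C, 6 without GSK126 low B or naive C, 5 without naive B, and 1 without GSK126 high B. It was 27 by DESeq2, 6 with the replicate letter as a block and 1 with the high gate alone.

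ATP5F1E, the ε subunit of complex V, had 162, 235 and 288 CPM in naive A549, 105, 106 and 89.4 CPM in the GSK126 low gate and 138 and 71 CPM in the high gate, with no overlap (-1.28 ± 0.27, adjusted p = 0.00444, edgeR). COX7B had 126, 129 and 117 CPM in the low gate and 160.0 and 100.1 CPM in the high gate, all below the naive 199, 315 and 302 CPM (-1.22 ± 0.26, adjusted p = 0.00449, edgeR). NDUFA2, a complex I accessory subunit, had a log2 fold change of -1.09 ± 0.23 (adjusted p = 0.00437, edgeR). Without GSK126 high B these adjusted p-values were 0.0541 for ATP5F1E, 0.0564 for COX7B and 0.0519 for NDUFA2. NDUFC1 fell by 1.06 ± 0.23 on the log2 scale (adjusted p = 0.00542, edgeR). ATP5F1B had 533, 689.9 and 613 CPM in naive cells and 587, 584, 693, 611 and 662 CPM over the GSK126 libraries, overlapping values (-0.06 ± 0.24, adjusted p = 0.924, edgeR).

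Of the 13 mitochondrial members 5 fell in A549 after GSK126 and none rose. MT-ND6 had 2575, 958 and 1056 CPM in naive cells, 705, 824 and 711 CPM in the low gate and 370.3 and 282 CPM in the high gate (-1.61 ± 0.34, adjusted p = 0.0057, edgeR). Naive A stood apart above the other naive libraries, and the adjusted p was 0.152 without it. It was 0.08 without TGF-β1 low A and 0.0812 without TGF-β1 low C. MT-ND3 had 954, 614 and 643 CPM in naive cells, 428, 400.3 and 322 CPM in the low gate and 383 and 325 CPM in the high gate, all below the naive libraries (-1.03 ± 0.2, adjusted p = 0.0024, and 0.0587 without GSK126 high B). MT-ND4L (-0.9, adjusted p = 0.00881), MT-ATP8 (-0.87, adjusted p = 0.0318) and MT-CO2 (-0.76, adjusted p = 0.0312) also passed edgeR's test. For MT-ND4L the adjusted p was 0.0552 without GSK126 high A and 0.143 without high B. MT-CO2 lost its call without any one of the 5 GSK126 libraries, naive B or naive C, and MT-ATP8 without GSK126 high A, low B, high B or low C or naive C. The count of 5 was 8 without TGF-β1 high B, 3 without GSK126 low B, GSK126 low C or naive C, 2 without GSK126 high A, and 1 without GSK126 high B.

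**Figure D2:**
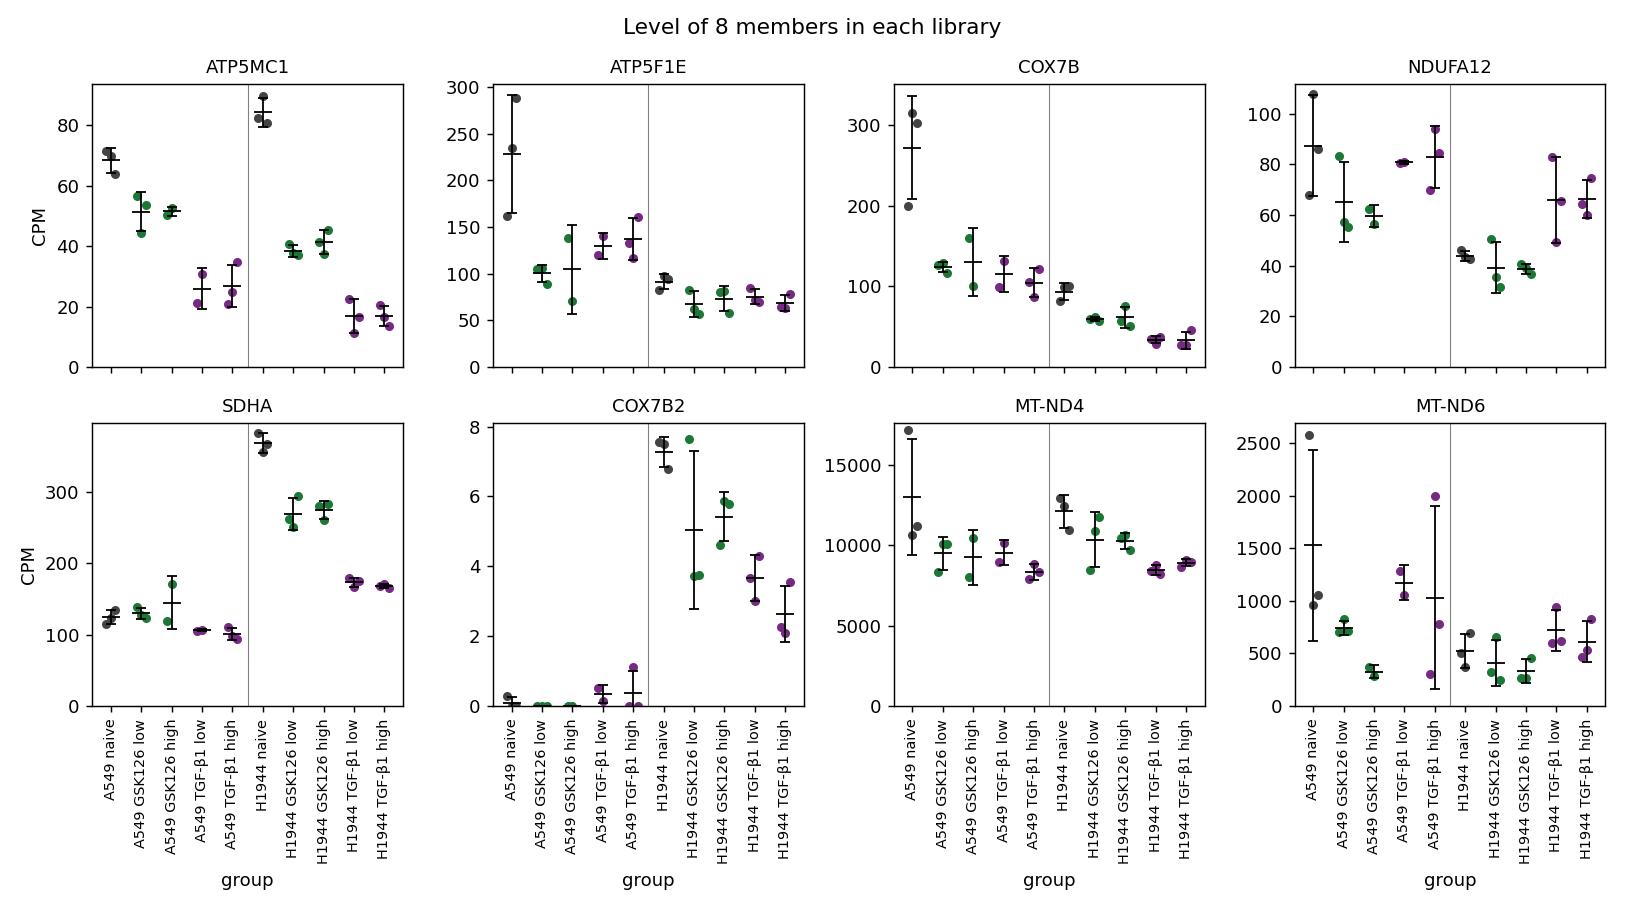
CPM (linear axis from 0) of 8 members in every library, by line and group; each point is 1 library. In H1944 the TGF-β1 libraries of ATP5MC1 (11.4 to 22.6 CPM) lie below all naive ones and those of NDUFA12 (49.4 to 83.1 CPM) above them.

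The comparison of the genomes within a library needs no scaling between libraries. The summed counts of the 13 mitochondrial members over those of the 88 nuclear members gave ratios of 6.38 to 7.44 in naive H1944, 6.37 to 8.5 after GSK126 and 8.41 to 9.98 after TGF-β1. All TGF-β1 libraries thus lay above all naive ones, and the GSK126 libraries overlapped the naive range. The difference of the mean log2 ratio from naive cells was 0.43 for TGF-β1 and 0.14 for GSK126, with an SD within groups of 0.13. In A549 the ratio was 4.43 to 8.98 in naive cells, 4.66 to 6.87 after GSK126 and 6.85 to 9.94 after TGF-β1, differences of -0.04 and 0.37 on the log2 scale beside an SD within groups of 0.34. All 3 ranges overlapped in A549, but the naive and TGF-β1 ranges did so only through naive A, a background-rich library, at 8.98. Naive B and naive C had 4.43 and 5.75, below every TGF-β1 library. The highest TGF-β1 ratio, 9.94, was that of TGF-β1 high B, the other background-rich library. The ratio is a sum over members and no test was made on it.

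Both parts of the ratio were lower in the treated H1944 cells. Nuclear members took 0.789% to 0.854% of all counts in naive H1944, 0.62% to 0.653% after GSK126 and 0.412% to 0.473% after TGF-β1, which are separate ranges. Mitochondrial members took 5.21% to 5.86%, 4.15% to 5.26% and 3.88% to 4.27%. In A549 the nuclear share was 0.875% to 1.16% in naive cells, 0.703% to 0.842% after GSK126 and 0.523% to 0.708% after TGF-β1, so both treatments lay below the naive range. The A549 mitochondrial share was 5.13% to 7.86%, 3.92% to 4.84% and 4.5% to 5.46%. The sum of the 2 mitochondrial ribosomal RNAs, from the same genome, was 12305 to 14283 CPM in naive A549, 4586 to 13832 CPM after GSK126 and 11378 to 15260.3 CPM after TGF-β1. In H1944 it was 10878 to 15326, 5833 to 14879 and 5729 to 15332 CPM in the same order. Of the 4 comparisons only MT-RNR2 in A549 after GSK126 passed (-1 ± 0.3, adjusted p = 0.0478, edgeR).

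**Figure D3:**
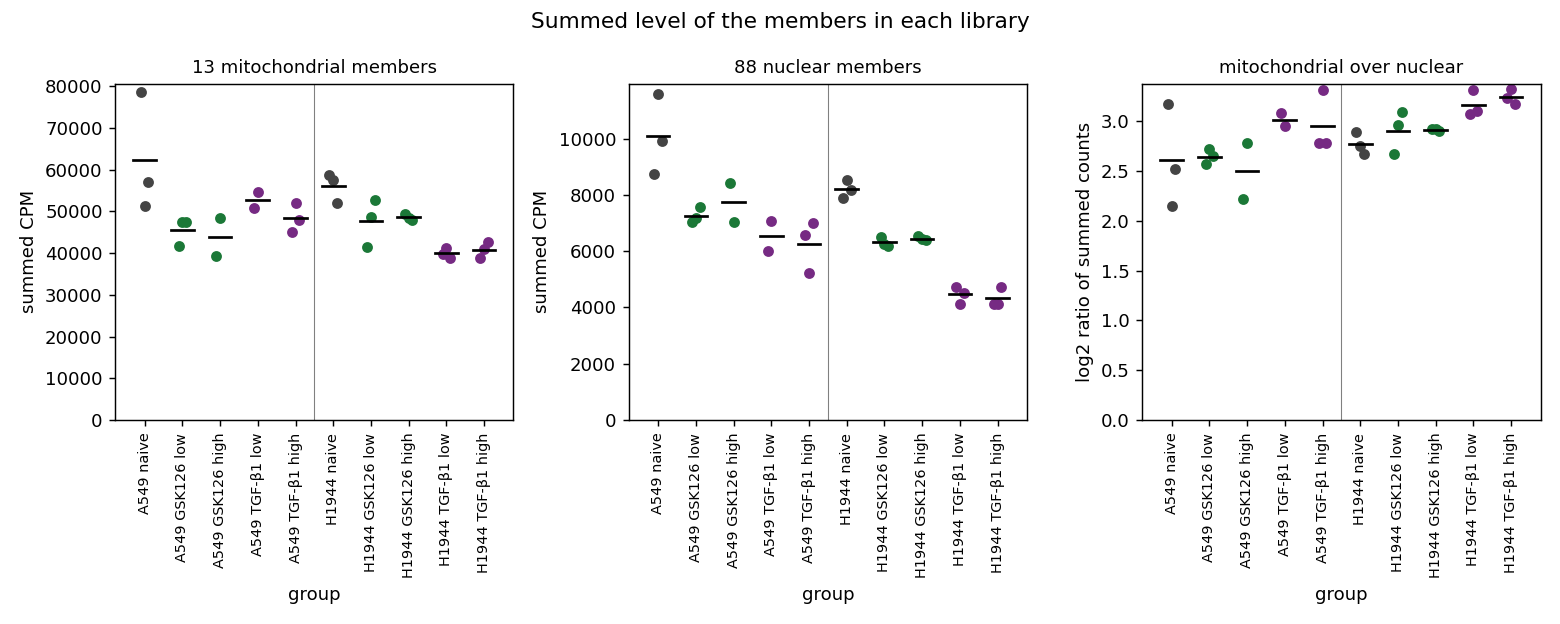
Summed CPM of the mitochondrial and of the nuclear members, and their ratio, in each of the 28 libraries by line and group. In H1944 the ratio after TGF-β1 (8.41 to 9.98) is above the naive range (6.38 to 7.44). In A549 the ranges overlap, those of naive and TGF-β1 cells only through naive A.

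Few members passed the test between reporter gates. Under GSK126 in A549 the nuclear median, high against low gate, was 0.3, with 71 members above 0 and 8 below, beside -0.05 over all genes. The nuclear share of counts there was 0.842% and 0.706% in the high gate and 0.703% to 0.756% in the low gate. The nuclear medians were -0.01 under TGF-β1 in A549, and 0.05 under GSK126 and -0.03 under TGF-β1 in H1944. In A549 no gene of the whole table passed in either gate comparison (0% of 19842 genes under GSK126 and 0% under TGF-β1 by edgeR). At an unadjusted p under 0.05, 1 nuclear and 1 mitochondrial member differed between the A549 GSK126 gates and none between the TGF-β1 gates, and DESeq2 called none. In H1944 under TGF-β1, where 0.0808% of all genes passed, no member did by edgeR or DESeq2, and 3 nuclear members had an unadjusted p under 0.05. In H1944 under GSK126, 2 nuclear members were higher in the high gate and none was lower, beside 7.42% of all genes in either direction. No mitochondrial member differed there, by edgeR, by DESeq2 or at an unadjusted p under 0.05. At that unadjusted limit 10 of the 79 nuclear members differed by edgeR. NDUFA13, a complex I subunit also known as GRIM-19, had 12.8, 10.4 and 10.4 CPM in the low gate and 17.6, 16.6 and 19.3 CPM in the high gate (+0.68 ± 0.21, adjusted p = 0.042, edgeR). UQCRQ had 81.7, 127 and 114 CPM in the low gate and 165, 128 and 137 CPM in the high gate (+0.42 ± 0.12, adjusted p = 0.025, edgeR). The gates did not overlap for either gene, but the count of 2 was 4 without GSK126 high B, 1 without GSK126 low B or naive C, and 0 without GSK126 high A or any one of the 6 TGF-β1 libraries, naive A or naive B.

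Sorted cells of both treatments could be compared with each other, so that sorting is shared. In H1944, TGF-β1-treated cells had lower RNA for 49 of 79 nuclear members and higher RNA for 2 than GSK126-treated cells, against 32.1% of all genes lower and 31.6% higher by edgeR. The higher ones were NDUFA12 (+0.96 ± 0.11, adjusted p = 9.41e-10) and NDUFS5 (+0.6 ± 0.08, adjusted p = 4.78e-09). ATP5MC1 was lower by -1.02 ± 0.13 (adjusted p = 1.94e-09), COX7C by -0.87 ± 0.08 (adjusted p = 3.93e-13) and ATP5F1B by -0.84 ± 0.07 (adjusted p = 4.81e-14). Of the mitochondrial members 6 of 13 were lower, from -0.16 to -0.34 (MT-CO3), and MT-ND6 was higher (+1.04 ± 0.29, adjusted p = 0.0094). The medians were -0.37 for nuclear, -0.06 for mitochondrial and -0.01 for all genes.

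In A549 the same comparison called 5 nuclear members lower and none higher, against 11.7% of all genes lower and 8.01% higher, a smaller share of the members than of all genes. The 5 were ATP5MC1 (-1.05 ± 0.19, adjusted p = 0.000489), ATP5F1B (-0.65, adjusted p = 0.0384), SDHB (-0.64, adjusted p = 0.0488), SDHD (-0.64, adjusted p = 0.0212) and COX5A (-0.61, adjusted p = 0.0416), by edgeR. MT-ND6 was the mitochondrial member that passed (+1 ± 0.31, adjusted p = 0.0282). The count of 6 over both genomes was 19 without both background-rich libraries, 14 without naive A, 12 without TGF-β1 high C and 11 without naive B. It was 1 to 3 without any one of the 5 GSK126 or the 2 TGF-β1 low libraries.

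Between naive cells of the lines, most of the nuclear members called were lower in H1944. By edgeR's test over 17918 genes, 7 of 80 nuclear members were higher and 33 lower in naive H1944 than in naive A549, against 23.8% of all genes higher and 22.6% lower. The share of members was thus 8.75% higher, below that of all genes, and 41.2% lower, above it. Nuclear members higher and lower were 4 and 16 of 36 in complex I and 2 and 1 of 4 in complex II. They were 1 and 7 of 14 in complex IV and 0 and 7 of 17 in complex V. In complex III they were 0 and 2 of 9, near the share of all genes that were lower, so this is no result about complex III. SDHA (chr5:218241-256700, plus strand) had 115, 124 and 135 CPM in naive A549 and 383, 356 and 368 CPM in naive H1944, a 3.02-fold higher level (log2 +1.59 ± 0.16, adjusted p = 5.7e-10). Among the members it ranked 72 per kilobase in naive A549 and 39 in naive H1944. SDHC was also higher in H1944 (+0.87 ± 0.14, adjusted p = 3.9e-06), while SDHB was lower (-0.66 ± 0.2, adjusted p = 0.00891). In complex I, NDUFS1 (+0.89 ± 0.15, adjusted p = 9.99e-06) and NDUFB9 (+0.75, adjusted p = 0.00103) were among those higher. COX7B, NDUFA1, ATP5MK and ATP5F1E, all short proteins, had the largest negative values among the called nuclear members, -1.53 ± 0.22, -1.34 ± 0.28, -1.32 ± 0.26 and -1.3 ± 0.23.

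Of the mitochondrial members MT-ND1 was higher in naive H1944 (+0.51 ± 0.14, adjusted p = 0.00315, edgeR), and MT-ND6 (-1.45), MT-CO1 (-0.44), MT-CO2 (-0.37) and MT-CO3 (-0.37) were lower. All 3 mitochondrial members of complex IV were thus lower in H1944, as were 7 of its 14 tested nuclear members. Naive A of A549 had the highest value of the 6 naive libraries for MT-ND6, MT-CO1, MT-CO2 and MT-CO3.

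**Figure D4:**
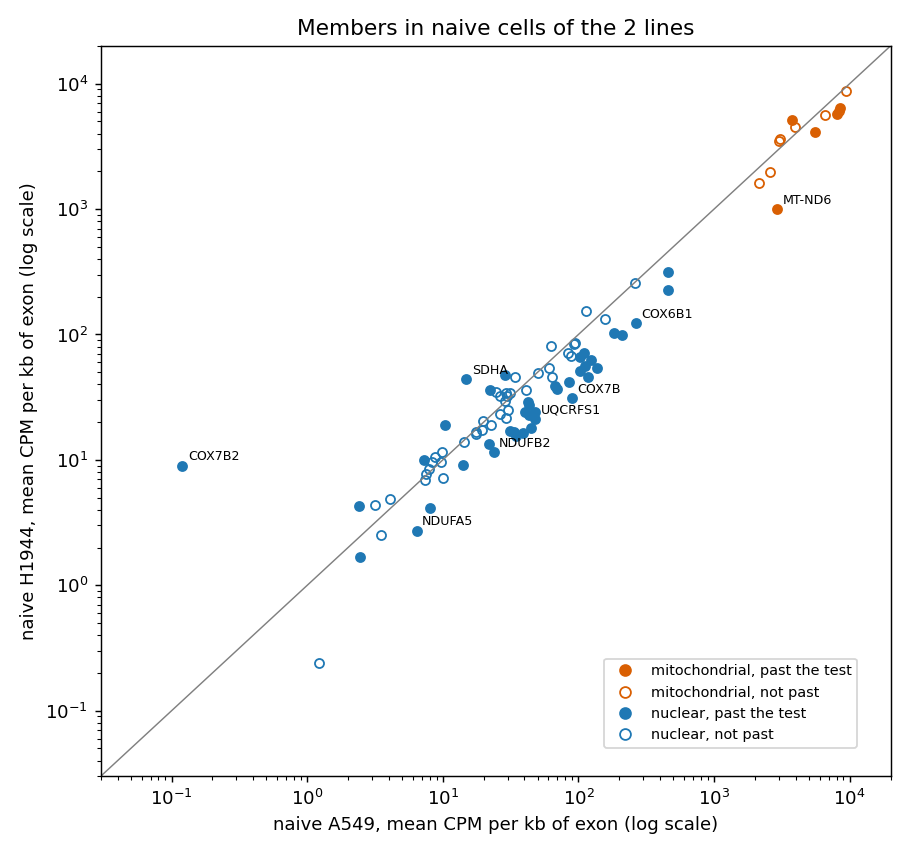
Mean CPM per kilobase of exon of each member, on log axes, in naive A549 (x axis) and naive H1944 (y axis), 3 libraries each, mitochondrial and nuclear members marked apart; the line marks equal levels. The 13 mitochondrial members lie at the top right, and SDHA is the member farthest above the line among those that passed the filter in both lines (383, 356 and 368 CPM against 115, 124 and 135 CPM).

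Differences in response between the lines were tested as their own contrast. For GSK126, 3 of 80 nuclear members differed, beside 9.92% of all genes: ATP5MC1 (-0.74 ± 0.24, adjusted p = 0.0445), NDUFV3 (-0.66 ± 0.19, adjusted p = 0.0174) and SDHA (-0.65 ± 0.2, adjusted p = 0.0281), each with the more negative effect in H1944. For TGF-β1, 12 of 80 differed, beside 20% of all genes, 11 with the more negative effect in H1944 and NDUFA12 with the more positive one (+0.82 ± 0.27, adjusted p = 0.0273). No mitochondrial member differed for either treatment by edgeR's adjusted p, with 1 for GSK126 and 3 for TGF-β1 at an unadjusted p under 0.05. These shares of the members are below those of all genes. ATP5F1D had the largest difference among the members called, with 44.8, 60.6 and 61 CPM in naive A549 and 35.2, 43.2 and 59.6 CPM (lowest, median, highest) after TGF-β1 there, and its effect was more negative in H1944 by -1.23 ± 0.29 (adjusted p = 0.00213). Without A549 TGF-β1 high B the TGF-β1 count was 21, and without A549 TGF-β1 low C it was 5. The GSK126 count was 6 without A549 TGF-β1 high B, 5 without A549 naive B, 0 without H1944 naive A, and 1 without A549 GSK126 high B, A549 TGF-β1 low C or A549 naive A. The TGF-β1 count was 6 without H1944 naive B.

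Genes that assemble, supply or regulate the complexes were followed as lists. PPARGC1A, which encodes PGC-1α, fell in all 4 comparisons with naive cells. It had 88.6 to 93.3 CPM in naive H1944, 39.6 to 62.6 CPM after GSK126 (-1.03 ± 0.11, adjusted p = 2e-10, edgeR) and 10.9 to 22.9 CPM after TGF-β1 (-2.47 ± 0.13, adjusted p = 3.3e-21), with no overlap between any of these. In A549 it had 16.6 to 27.7 CPM in naive cells, 2 to 15.1 CPM after GSK126 (-2.14 ± 0.54, adjusted p = 0.0236) and 0 to 10.6 CPM after TGF-β1 (-2.57, adjusted p = 0.00156). PPARGC1B, the related coactivator, rose after GSK126 in A549, from 15.5 to 29 CPM in naive cells to 36.6 to 44.5 CPM (+0.92 ± 0.18, adjusted p = 0.00289). Of 21 listed regulators, 2 rose and 1 fell in A549 after GSK126, 2 and 3 after TGF-β1, 3 and 5 in H1944 after GSK126, and 5 and 10 after TGF-β1. The counts of this list and the others are to be read beside the shares of all genes, 31.6% lower and 32.1% higher in H1944 after TGF-β1, 18.7% and 21.4% after GSK126, 11.5% and 7.77% in A549 after TGF-β1, and 3.21% and 3.66% after GSK126.

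Of 53 tested assembly factors of the complexes, 34 fell and 1 rose in H1944 after TGF-β1 (median -0.52), 10 fell and 2 rose after GSK126 (-0.17), 15 fell in A549 after TGF-β1 (-0.49) and 1 after GSK126 (-0.15), and none rose in A549. Both GSK126 counts were near or below the share of all genes that fell, so they are no result about these factors. COA6, a complex IV assembly factor, fell by 1.65 ± 0.12 on the log2 scale in H1944 after TGF-β1 (adjusted p = 1.09e-16, edgeR), and the copper chaperone COX17 by 1.55 ± 0.25 in A549 after TGF-β1 (adjusted p = 0.000116). Of 18 electron carriers and subunits outside the rule, 16 fell in H1944 after TGF-β1, 7 after GSK126, and 10 and 2 in A549 in the same order. ETFB, which hands electrons from fatty acid oxidation to ubiquinone, had 114 to 132 CPM in naive H1944 and 24.7 to 32.9 CPM after TGF-β1 (-2.07 ± 0.11, adjusted p = 1.11e-21). Of 39 genes of mitochondrial DNA and RNA upkeep, 20 fell in H1944 after TGF-β1, 10 after GSK126, 3 in A549 after TGF-β1 and 0 after GSK126. Both A549 counts were below the share of all genes that fell, so they are no result about these genes. POLG2, the accessory subunit of the mitochondrial DNA polymerase, fell by 2.09 ± 0.16 in H1944 after TGF-β1 (adjusted p = 2.25e-15) and by 1.34 ± 0.15 after GSK126 (adjusted p = 1.61e-10).

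In the tricarboxylic acid cycle, 16 of 19 tested genes fell and 1 rose in H1944 after TGF-β1 (median -0.66), and 9 fell after GSK126. In A549 9 fell after TGF-β1 and none after GSK126. PC, pyruvate carboxylase, had 52.4 to 57 CPM in naive H1944 and 7.7 to 13.9 CPM after TGF-β1 (-2.2 ± 0.14, adjusted p = 3.7e-18, edgeR). Glycolysis genes were mixed in H1944, 7 higher and 12 lower of 23 after TGF-β1 and 7 and 7 after GSK126. PFKFB3, which makes the activator of phosphofructokinase, rose there from 35.7 to 45.3 CPM in naive cells to 204 to 224 CPM after TGF-β1 (+2.56 ± 0.11, adjusted p = 8.08e-25), and LDHB fell by 1.71 ± 0.09 (adjusted p = 8.69e-20). Of 22 glycolysis genes in A549, 2 rose and 9 fell after TGF-β1 and 1 rose after GSK126. Among 13 hypoxia-induced genes 7 rose and 3 fell in H1944 after TGF-β1, beside 32.1% and 31.6% of all genes, and 6 and 2 after GSK126. Of 14 in A549, 4 rose and 3 fell after TGF-β1, and 1 rose after GSK126. ANGPTL4, which encodes an inhibitor of lipoprotein lipase, had 0 to 0.832 CPM in naive H1944 and 160 to 246 CPM after TGF-β1 (adjusted p = 6.71e-33, edgeR), and P4HA2 went from 14.1 to 18.5 CPM to 147 to 190 CPM (+3.44 ± 0.13, adjusted p = 3.16e-27).

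Cytosolic ribosomal protein genes, which are also short and abundant, fell in the same comparisons. Of 82 cytosolic ones tested in H1944, 80 fell and 1 rose after TGF-β1 (median -1.23) and 75 fell after GSK126 (-0.66). In A549 38 of 84 fell after TGF-β1 (-0.68) and 9 after GSK126 (-0.55). RPL13A had 2918 to 3518 CPM in naive H1944 and 702 to 805 CPM after TGF-β1 (-1.99 ± 0.07, adjusted p = 2.85e-27, edgeR). Mitochondrial ribosomal proteins fell in 62 of 77 cases in H1944 after TGF-β1 (median -0.56), 23 after GSK126 (-0.19), and in A549 in 38 of 78 after TGF-β1 (-0.7) and 1 after GSK126 (-0.18). The last count was below the 3.21% of all genes that fell, and the median of all genes was -0.16, so it is no result about these proteins. Of 31 import and outer membrane genes 25 fell and 2 rose in H1944 after TGF-β1, 15 and 1 after GSK126, 16 fell in A549 after TGF-β1 and none after GSK126.

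Fold changes also moved with gene length among other coding genes with a mean above 20 CPM in the line, least in H1944 after GSK126. No such limit was set for the nuclear members. Other coding genes with under 2 kb of exon had a median log2 fold change of -0.47 in H1944 after TGF-β1 and -0.62 in A549, and those over 4 kb 0.09 and -0.04. Nuclear members under 2 kb had medians of -0.83 and -0.96, and those over 4 kb -0.76 and -0.49. After GSK126 the other coding genes had -0.1 and 0 in H1944 and -0.22 and 0.07 in A549 for the short and long classes, and the nuclear members -0.45 and -0.44, and -0.69 and -0.28. In each class the nuclear members had the lower median in all 4 comparisons, and in A549 the short members were lower than the long ones. The part of length in the results was not tested.

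Members were also split by an exact match to a promoter motif, so that those with a variant form count as without it. In H1944 after TGF-β1 the 13 members with the NRF1 core had a median log2 fold change of -0.91 and 12 of them fell, and of the 52 tested members without it 48 fell (-0.82). With the ETS motif all 20 fell (-0.79), and without it 40 of 45 (-0.87). In A549 after TGF-β1, 11 of 13 with the NRF1 core fell (-0.86) and 31 of 51 without it (-0.8). These counts are descriptions and were not compared by a test.

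Across the libraries of a line, the non-member coding genes whose log2 CPM followed the mean of the mitochondrial members most closely were RHOBTB1 (Pearson's r = 0.938), ONECUT2 (0.93), GPRIN3 (0.915), POC1B (0.912) and LRRK2 (0.909) over the 13 A549 libraries. Over the 15 H1944 libraries they were MILR1 (0.932), DERL1 (0.925), SERPINB6 (0.917), PGGHG (0.915) and VLDLR (0.914). Among the genes that followed the mean of the nuclear members most closely were RPS12 (0.994), RPS7 (0.994), RPL12 (0.99) and RPS16 (0.989) in H1944, and RPL29 (0.982), RPS16 (0.981), REEP5 (0.978), RPS13 (0.978) and RBBP7 (0.977) in A549. The points share libraries, depth and treatment groups, and the values describe these libraries only.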

How the data were processed

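RNA of 28 libraries was sequenced from a low-input kit for stranded total RNA, per the labels' protocols. The authors deposited 1 table of integer read counts per gene and library, and per the submitters' processing notes used bcl2fastq 2.20.0, STAR 2.6.0c, HTSeq 0.12.3 and the genome build GRCh38. The annotation release, strand setting, trimming and treatment of duplicates are not given in the sources used here. The A549 GSK126 high C and TGF-β1 low B libraries are not analysed here. PCR copies count as separate reads.

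Symbols were found for 56321 of 60483 Ensembl identifiers, and biotypes, coordinates and exon lengths came from GENCODE 29. CPM divide a deposited count by its library's total. Tests used edgeR 4.0.16 in R 4.3.3 (quasi-likelihood F test, TMM, filterByExpr, Benjamini-Hochberg over all genes at 0.05). Each line was fitted with its 5 groups, and a fit of all 10 groups gave differences between lines. Against naive cells both gates were averaged, and all comparisons of a line with naive cells share the same naive libraries. The mVenus reporter row stayed in the fits and out of gene counts. The fit code was run on counts simulated from the fitted model with known changes, which cannot show whether the model suits these libraries. Alternatives were RLE size factors, no filter, DESeq2 1.42.0, library sizes without mitochondrial genes, the replicate block, each gate alone, and leaving out libraries.

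Members and lists were chosen with earlier results of these data known. Named genes are all mitochondrial members, the 4 highest and 4 lowest called nuclear members of each main comparison, isoform genes, the most abundant nuclear member of each complex, the 2 genes of smallest adjusted p of each other list, and the 5 genes most correlated with the members' mean. Of the nuclear members and list genes that this rule takes, some are given here. A few others are named because they differed between lines or illustrate a value, and these were chosen after their values were seen. The labels do not say what the letters mark. Same-letter gates of H1944 under GSK126 deviated together (correlations of 0.124, 0.143 and 0.101), so these may be pairs, a hint from the data rather than the design. The reported gate tests used no pairing, and the replicate block was run only as an alternative. The A549 TGF-β1 gates share only letters A and C, with correlations of 0.103 and 0.411, so these may be pairs too. Correlations were 0.167 and 0.079 in the A549 GSK126 gates (letters A and B). They were 0.081, 0.1 and -0.034 in the H1944 TGF-β1 gates. Values of 2 genes are not reported here by name.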

Additional observations from a re-analysis of the deposited data

Results flagged for a closer look

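Effects of a treatment that differed between the lines are given as log2 differences, H1944 minus A549, from edgeR's test of the difference with Benjamini-Hochberg adjustment. For GSK126 they were SDHA at -0.65 (adjusted p = 0.0281), ATP5MC1 at -0.74 (adjusted p = 0.0445) and NDUFV3 at -0.66 (adjusted p = 0.0174). In H1944 these genes fell after GSK126, and in A549 none of them passed.

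For TGF-β1 the complex V genes were ATP5F1D at -1.23 (adjusted p = 0.00213), ATP5MC1 at -0.84 (adjusted p = 0.0151), ATP5F1B at -0.77 (adjusted p = 0.016), ATP5F1A at -0.68 (adjusted p = 0.0482) and ATP5MC3 at -0.65 (adjusted p = 0.0369). The complex I genes were NDUFV3 at -0.67 (adjusted p = 0.00878), NDUFV1 at -0.62 (adjusted p = 0.0492) and NDUFA12 at 0.82 (adjusted p = 0.0273). Complex II gave SDHA at -0.75 (adjusted p = 0.00497) and SDHC at -0.69 (adjusted p = 0.00351), complex III gave UQCRC1 at -0.87 (adjusted p = 0.0157), and complex IV gave COX7A2L at -0.95 (adjusted p = 0.00378). COX7A2L had 93.7, 98.2 and 81.3 CPM in naive H1944 and 40.1 to 46.2 CPM after TGF-β1, and 69.4 to 124 CPM in naive A549 with 82 to 107 CPM after TGF-β1, where it did not pass. NDUFA12 had 68.1, 108 and 86 CPM in naive A549 and 69.9 to 94.2 CPM after TGF-β1 there.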

How the results depend on the processing

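In H1944 the counts of members past the test against naive cells stayed within 1.5 times of the reported ones under every alternative run, and the members called were lower in each of them, apart from NDUFA12 after TGF-β1 and, without naive C, 1 further nuclear member (2 higher in all). In A549 the counts moved, always with no member called higher against naive cells. The cause was not tested. Nuclear members after GSK126 in A549 (15) came to 23 with RLE size factors, 27 by DESeq2, 6 with the replicate block, 1 with the high gate alone, 48 without both background-rich libraries, and 1 to 33 when single libraries were left out. The 5 mitochondrial calls there came to 2 without a filter, 8 with RLE, 10 by DESeq2, 3 with the replicate block, 2 with the high gate alone, 3 with the low gate alone, 8 without both background-rich libraries, and 1 to 8 without single libraries. After TGF-β1 in A549 the 50 nuclear calls came to 20 with the low gate alone and 20 to 61 without single libraries, and the 4 mitochondrial calls to 1 without a filter, 8 by DESeq2, 2 with the replicate block, 1 with the low gate alone, and 1 to 7 without single libraries. TGF-β1 against GSK126 in A549 (6) came to 2 without a filter, 10 with RLE, 19 without both background-rich libraries, and 1 to 14 without single libraries. The H1944 GSK126 gates (2) came to 1 without a filter and by DESeq2 and 0 to 4 without single libraries; the replicate block left 2. Differences between the lines came to 1 (GSK126, 3 reported) and 6 (TGF-β1, 12 reported) without a filter, and to 0 to 6 and 5 to 21 without single libraries. The mitochondrial to nuclear ratio of H1944 after GSK126 was 0.01 in place of 0.14 when log2 CPM were averaged over members. Among the members that the naming rule takes, none called in both a reported fit and its alternative changed direction. The small negative difference of the A549 ratio after GSK126 rests on naive A, and its sign turns without that library. Log2 ratios were 3.17 in A549 naive A, 2.15 in naive B and 2.52 in naive C, against 2.22 to 2.78 after GSK126. Over the values of these members in the 8 main comparisons, 5173 kept their side of the threshold, 63 gained it and 187 lost it. Values uncalled in both fits count as kept, and the gate comparisons held few calls, so 5173 does not measure how stable the calls were. Here, these members are those that the naming rule takes. Without a filter the median of all genes in A549 after GSK126 was -0.52 in place of -0.16. Leaving out 1 of 2 libraries of a gate assumes that the other varies like the other groups. Shallow libraries limit the low isoform genes most.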
